A study of Mus musculus with 16 samples.

Results

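The genes described here are the numbered mouse zinc finger protein (Zfp) genes, taken as the gene intervals over which H3K27me3 reads were counted. An interval was a member when its symbol was Zfp followed by a number and at most 1 letter, and when it held at least 1 read over the 4 ChIP libraries. This gave 347 members of 22269 intervals, from 352 such symbols. The other 5 symbols (Zfp273, Zfp882, Zfp383, Zfp420 and Zfp750) overlap another interval and held no read. All 347 symbols were also among the 23420 genes of the RNA count files. Beyond that 1 read, no measured level entered the rule.

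The study took naive CD4+ T cells sorted from mice with loxP-flanked Ezh2 (Ezh2 fl/fl, labelled wild type and called control here) and from Ezh2 fl/fl.CD4Cre mice, labelled Ezh2-/- and called Ezh2-deleted here. Both genotypes carry the floxed allele, and CD4Cre deletes it in T cells from the thymus onward, so the control cells lack the Cre transgene. All cells were activated with plate-bound anti-CD3 (5 ug/ml) and anti-CD28 (1 ug/ml), either neutrally with IL-2 at 50 U (Th0) or with IL-2 at 200 U/ml and TGF-b1 at 5 ng/ml (iTreg, induced regulatory T cells). There were 12 RNA libraries, 3 for each genotype in each culture, and 4 H3K27me3 ChIP libraries, 2 for each genotype and in Th0 culture only. The design text calls them biological replicates. The protocol gives harvest at day 4, while the iTreg RNA titles say day 5. The age and sex of the mice were not given in the sources used here. Libraries are named by the number in their titles, with KO for Ezh2-deleted. The numbers KO.165 and 177 (control) occur in both cultures, so these RNA libraries may share a mouse.

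Most Zfp genes encode proteins with arrays of C2H2 zinc fingers, in which a zinc ion holds a short loop that reads a few DNA bases. Many also carry a KRAB domain, which recruits Trim28 (KAP1) and through it the H3K9 methyltransferase Setdb1 to silence transposable elements and some genes. The genes lie largely in tandem clusters. H3K27me3 is a different silencing mark, written by Polycomb repressive complex 2, of which Ezh2 is a catalytic subunit. A few symbols of the group name proteins of other kinds, such as Zfp36 (tristetraprolin), which binds AU-rich elements and speeds mRNA decay.

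The reads counted in genes were 21910114 to 28443427 per RNA library and 11124172 to 15103496 per ChIP library. Zfp members took 0.909% to 1.00% of the ChIP reads and 0.619% to 1.06% of the RNA reads. Ezh2 RNA was 295 to 312 CPM (counts scaled to the library total) in control Th0 and 148 to 169 CPM in Ezh2-deleted Th0, 166 to 251 CPM in control iTreg and 48.7 to 123 CPM in Ezh2-deleted iTreg. Counts were per gene, so reads from undeleted exons are included. In a principal component analysis of all genes, iTreg KO.165 and iTreg control 177 stood apart from the other 4 iTreg libraries. The KO.165 libraries were the only RNA libraries with female Xist levels. The X share of ChIP reads was 2.35% and 5.74% in the control libraries and 4.16% and 3.36% in the deleted ones. All 8 T cell markers were found in every RNA library. The summed B cell markers (7 genes) were 76.0 to 125 CPM in control Th0, 231 to 527 CPM in Ezh2-deleted Th0, 29.2 to 30.2 CPM in control iTreg and 38.7 to 79.6 CPM in Ezh2-deleted iTreg. Their part in the RNA results below was not tested.

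Stretches upstream of 6 members are shown because results described below turn on these genes. Each is the 250 bases before the RefSeq start site (GRCm38.p6, the build named mm10), written along the gene's strand with every CG pair in capitals. CG-rich stretches are where Polycomb complexes are known to gather when a gene is silent, but not all 6 shown are CG-rich. The windows lie upstream of the intervals in which reads were counted, apart from their last 3 bases in Zfp600 and 2 in Zfp414. The 6 were chosen after their values were seen.
Zfp503 (chr14:21989602-21989851, minus strand): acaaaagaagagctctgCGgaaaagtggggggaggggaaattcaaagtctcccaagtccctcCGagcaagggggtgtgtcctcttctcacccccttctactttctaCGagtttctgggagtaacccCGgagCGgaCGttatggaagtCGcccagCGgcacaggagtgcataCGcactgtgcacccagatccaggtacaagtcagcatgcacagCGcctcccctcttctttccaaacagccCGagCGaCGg
Zfp580 (chr7:5051282-5051531, plus strand): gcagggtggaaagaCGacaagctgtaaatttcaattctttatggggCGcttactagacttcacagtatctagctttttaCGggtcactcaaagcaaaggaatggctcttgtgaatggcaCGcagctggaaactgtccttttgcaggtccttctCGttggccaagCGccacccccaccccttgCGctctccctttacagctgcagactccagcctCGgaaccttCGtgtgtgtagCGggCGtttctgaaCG
Zfp768 (chr7:127345315-127345564, minus strand): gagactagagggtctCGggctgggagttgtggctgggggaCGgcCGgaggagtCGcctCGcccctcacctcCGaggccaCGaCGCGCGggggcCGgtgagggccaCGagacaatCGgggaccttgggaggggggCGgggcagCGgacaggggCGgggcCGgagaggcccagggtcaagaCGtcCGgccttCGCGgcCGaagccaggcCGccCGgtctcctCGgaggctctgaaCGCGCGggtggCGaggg
Zfp941 (chr7:140822179-140822428, minus strand): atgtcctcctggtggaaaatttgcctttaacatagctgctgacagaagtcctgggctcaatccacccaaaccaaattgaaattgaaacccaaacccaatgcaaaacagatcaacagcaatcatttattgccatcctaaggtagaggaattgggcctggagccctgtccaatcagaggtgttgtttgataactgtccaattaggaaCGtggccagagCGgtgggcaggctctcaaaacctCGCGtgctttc
Zfp600 (chr4:146156577-146156826, plus strand): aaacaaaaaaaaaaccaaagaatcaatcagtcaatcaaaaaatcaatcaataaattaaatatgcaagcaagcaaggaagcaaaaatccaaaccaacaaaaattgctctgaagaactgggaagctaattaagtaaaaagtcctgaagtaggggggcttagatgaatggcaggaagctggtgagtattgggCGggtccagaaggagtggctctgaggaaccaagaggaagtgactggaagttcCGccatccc
Zfp414 (chr17:33628842-33629091, plus strand): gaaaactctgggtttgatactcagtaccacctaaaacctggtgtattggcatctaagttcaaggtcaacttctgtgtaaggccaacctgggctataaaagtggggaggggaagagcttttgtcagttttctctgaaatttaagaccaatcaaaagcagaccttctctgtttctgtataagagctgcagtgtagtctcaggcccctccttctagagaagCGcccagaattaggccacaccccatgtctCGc
The stretch of Zfp503 holds 13 CG pairs, that of Zfp580 12, Zfp768 29, Zfp941 4, Zfp600 2 and Zfp414 2. Zfp503, Zfp580, Zfp768 and Zfp941 lost H3K27me3 without Ezh2, Zfp414 gained reads, and Zfp600 was dense in both genotypes. These 6 do not stand for the members: over 245 of them, CG pairs and control density ran weakly opposite (Spearman rho -0.255).

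In control Th0 cells the Zfp intervals carried H3K27me3 at a level below that of the average gene, with a small dense tail. Density is given as ChIP CPM per kb of counted interval, and as the mean of the 2 libraries of a genotype unless a library is named. The median density was 0.748 over the 347 members and 0.913 over the 20976 intervals with at least 1 read. It was 7.24 over the 31 Hox intervals, the textbook Polycomb targets, 1.26 over 1083 olfactory receptor (Olfr) intervals and 0.632 over 92 intervals of other zinc finger families (Zbtb, Klf, Ikzf and the like). Of the members, 227 lay at or below the median of all intervals, 22 were in the top 10% and 23 in the bottom 10%. The members' density ranks were alike in the control libraries (Spearman rho 0.889 over 347 members, a description over genes that share libraries).

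The 3 densest members were Zfp503, Zfp580 and Zfp105. Zfp503 (NOLZ1), a repressor of the developing brain and limb that has few zinc fingers, measured 5.71 in control 33 and 9.06 in control 7, against 1.14 and 1.94 in Ezh2-deleted 10 and 9. Zfp580, which lies in a cluster on chromosome 7, measured 4.96 and 5.95 in the controls and 1.51 and 0.943 without Ezh2. Zfp105 measured 4.53 and 5.00 in the controls and 1.33 and 1.34 without Ezh2. In all 3 the control libraries lay well above the deleted ones. The other members of the densest 12 were Zfp872, Zfp600, Zfp354b, Zfp811, Zfp663, Zfp9, Zfp316, Zfp641 and Zfp930, with mean control densities between 2.59 and 3.31. The 22 members in the top 10% ended at Zfp958 (2.24), and the next below were Zfp534 (2.22) and Zfp286 (2.07).

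Without Ezh2 the densities of the members drew together. The median rose to 0.960 beside 0.951 over all intervals, and the ratio of the upper to the lower quartile went from 2.12 to 1.30 over members and from 3.02 to 1.34 over all intervals. The controls held 22 (control 33) and 29 (control 7) members at a density of 2 or more, and the deleted libraries 4 (deleted 10) and 9 (deleted 9). At the lower end, 55 and 106 members were under 0.5 in the controls, and 3 in each deleted library. No input or spike-in library was analysed here, so a density is a share of one library's reads and a rise cannot be told apart from the share freed by reads lost elsewhere.

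**Figure D1:**
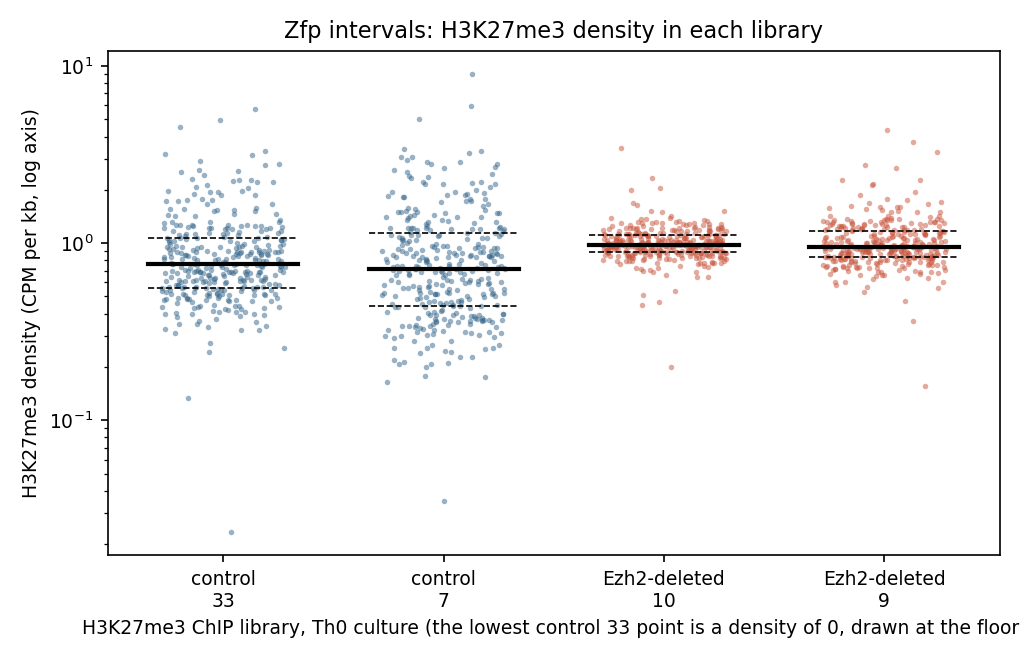
H3K27me3 density (CPM per kb, log axis) of the 347 Zfp intervals in each of the 4 ChIP libraries, 1 point per interval, with the median (solid line) and quartiles (dashed lines). The controls, with medians of 0.759 and 0.718, are spread more widely than the deleted libraries, with medians of 0.982 and 0.949; a density of 0 in control 33 is drawn at the floor.

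Scaled by library size, 34 of the 346 tested members had lower H3K27me3 without Ezh2 and 114 had higher H3K27me3, at an adjusted p under 0.05. Over all 20376 intervals tested, 20.6% were lower and 32.2% higher, so the members' share of higher calls (32.9%) was near that of all intervals and their share of lower calls (9.83%) was below it. The median log2 change was 0.43 over members and 0.21 over all intervals. TMM scaling, which sets the typical interval near no change, moved the median of all intervals to -0.02 and that of members to 0.20, and called 67 members higher and 49 lower (24.3% and 28.0% of all intervals). The calls rest on both deleted libraries, since without deleted 10 or without deleted 9 only 1 deleted library is left. The members' median log2 change was then 0.43 and 0.44, beside 0.22 and 0.18 over all intervals. On simulated counts the ChIP test made more false calls than its threshold allows, which the RNA tests did not, so single calls in H3K27me3 are less certain than their adjusted p states. The densities of the called groups below are descriptions, since the call used them.

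The losses sat at members that were dense and mostly silent. The 34 members called lower had control densities of 1.09 to 7.38 (median 2.28) and deleted densities of 0.699 to 1.54 (median 1.14). The largest fall was that of Zfp503, by 2.27 on the log2 scale (SE 0.31, adjusted p = 0.000541). Zfp580 fell by 2.13 (SE 0.30, adjusted p = 0.000391) and Zfp105 by 1.83 (SE 0.22, adjusted p = 0.000144). Zfp316, Zfp811, Zfp9, Zfp385a and Zfp768 followed, with falls between 1.39 and 1.20. Zfp768 went from 1.25 and 1.95 in the controls to 0.684 and 0.713, the lowest density among members that lost the mark, on 20 to 61 reads per library. Zfp57, the KRAB protein that protects DNA methylation at imprinted genes, went from a mean of 2.40 to 1.17 and fell by 1.04 (SE 0.23, adjusted p = 0.00426).

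The members called higher began sparse. Their control densities ran from 0.171 to 0.799 (median 0.456) and their deleted densities from 0.459 to 1.45 (median 0.889). The largest rise was that of Zfp414, from 0.134 and 0.209 in the controls to 0.689 and 0.668 (log2 change 1.95, SE 0.46, adjusted p = 0.00516), on 4 and 7 control reads. Zfp142, Zfp668, Zfp574, Zfp384, Zfp212, Zfp954 and Zfp259 followed, with log2 changes from 1.65 to 1.38 under library-size scaling and from 1.42 to 1.15 under TMM. Zfp142 and Zfp668 overlap another interval, where shared reads were not counted. Several members of known function in growing cells were also among those called higher: Zfp207 (BuGZ, spindle assembly), Zfp598 (sensor of collided ribosomes), Zfp410 (activator of Chd4), Zfp106, Zfp91, Zfp148 and Zfp292, each with a mean between 0.353 and 0.467 in the controls and between 0.796 and 0.950 without Ezh2.

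**Figure D2:**
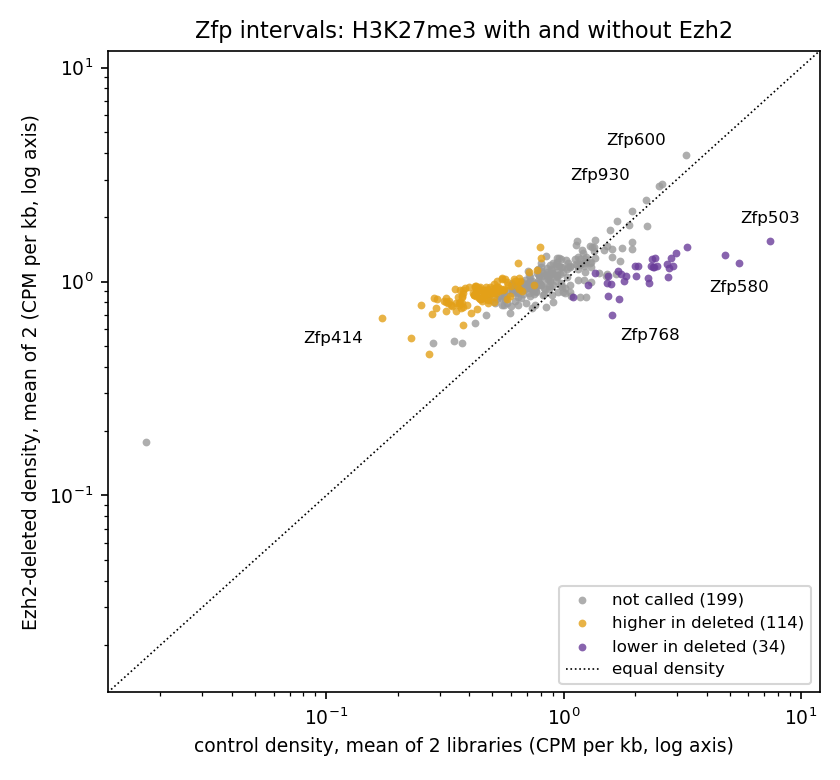
Mean H3K27me3 density of each Zfp interval in control (x axis) and Ezh2-deleted (y axis) Th0 cells, in CPM per kb on log axes, coloured by the call at an adjusted p under 0.05 with library-size scaling. The 34 members called lower start at 1.09 or more and the 114 called higher start at 0.799 or less; the 199 others include Zfp593 (the lowest and leftmost point), which was not tested.

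A few dense members did not fall. Zfp600, a gene of a KRAB zinc finger cluster on chromosome 4, measured 3.14 and 3.40 in the controls and 3.46 and 4.34 without Ezh2 (log2 change 0.26, SE 0.14, adjusted p = 0.145). It moved from the percentile 95.7 to 99.8 of all intervals and was then the densest member. Zfp930 measured 2.32 and 2.87 in the controls and 2.01 and 3.71 without Ezh2, so its libraries overlapped. Zfp936 had means of 2.53 and 2.79. The densest members without Ezh2 were Zfp600, Zfp930 and Zfp936, then Zfp534 and Zfp709. Genes of this kind have closely similar copies, and the authors' counting could split or discard reads between copies, so these densities are uncertain.

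The mark and the RNA ran opposite over members, as they did over all genes. In control Th0 cells 68 members had under 1 CPM of RNA (mean of 3 libraries), with a median density of 1.51, and 279 had at least 1 CPM, with a median of 0.644. Without Ezh2 the medians were 1.16 and 0.937. Of the 68 near-silent members 27 were called lower in H3K27me3 and 0 higher, and of the 278 tested expressed members 7 were lower and 114 higher. Over all intervals tested, at any RNA level, 20.6% were lower and 32.2% higher. Of the 22 members in the top 10% of density, 17 had under 1 CPM. Zfp580 was an exception, at 5.15 CPM in control Th0. Spearman rho between RNA (RPKM, CPM per kb of gene) and density was -0.573 over 347 members in control cells and -0.375 in Ezh2-deleted cells, and over 20972 genes -0.715 and -0.625. These are descriptions over genes that share libraries, with no p.

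**Figure D3:**
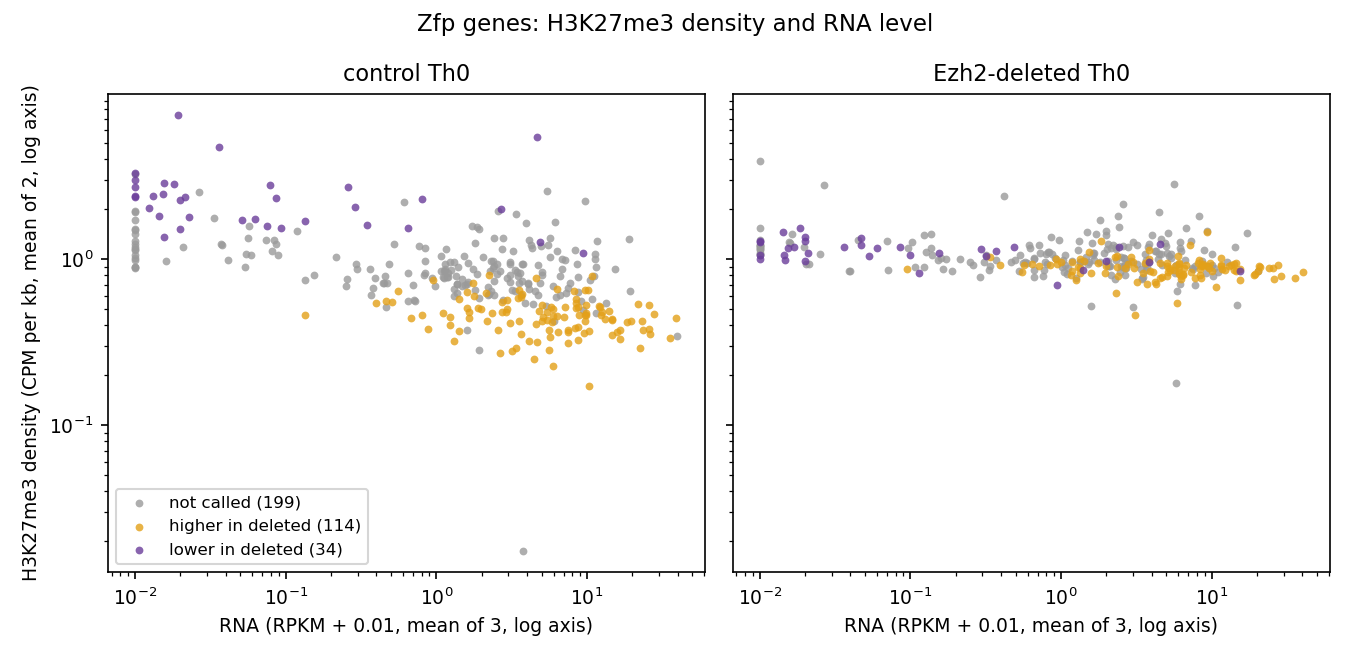
H3K27me3 density (CPM per kb, mean of 2 libraries) against RNA (RPKM + 0.01, mean of 3 libraries) for each Zfp gene in control and Ezh2-deleted Th0 cells, on log axes, coloured by the H3K27me3 call. In control cells the members called lower lie mostly at the silent left edge and those called higher among expressed genes; without Ezh2 both sit near a density of 1.

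The 11 members with no read in any RNA library had a median density of 1.19 in control and in Ezh2-deleted cells. Zfp42 (REX1, a pluripotency marker), Zfp423, which acts in fat and brain development, and Zfp366 (DC-SCRIPT), a dendritic cell factor, were among the silent members. Their control densities were 0.902, 1.15 and 1.41, and none of the 3 was called in H3K27me3. Zfp536, a neuronal repressor, went from 1.36 to 1.10 and was called lower (adjusted p = 0.026), without reaching 1 CPM in any group.

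Many members lie in tandem clusters, and density varied within as well as between them. Chaining members at most 500 kb apart gave 16 clusters of at least 5 members, with 149 members in all. The median control density of a cluster ran from 0.432, in a group of 6 members at chr7:6131489-6396633, to 1.54, in the 6 Zfp354 neighbours at chr11:50811086-51072799. Within the first of these no member exceeded 0.561, and 5 of 6 were called higher. The chromosome 11 group held Zfp354b (2.99 to 1.35) and had no member called higher. In 5 other clusters the densest gene exceeded a density of 2 while the cluster's median was below 1. Zfp580 (5.46) and Zfp579 (2.003), which are not next to each other, lay in a cluster of median 0.527. Zfp872 (3.31) lay in one of median 0.958 and Zfp811 (2.89) in one of median 0.715. Zfp580, Zfp872 and Zfp811 were called lower. Zfp936 (2.53) lay in a cluster of median 0.508 and Zfp930 (2.59) in one of median 0.891, and neither cluster had a member called lower. The largest clusters were those of chromosome 17 (20 members, median 0.794) and chromosome 13 (18 members, median 0.811), where 4 and 1 members were called higher and 2 and 0 lower. Clustered members had a median of 0.716 in control cells and 0.970 without Ezh2, and the 122 members with no near neighbour 0.662 and 0.931.

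The upstream CG pairs went with the level only weakly. Of the members, 245 had a RefSeq start within 1000 bases of their interval's start on the same strand. Their 250 upstream bases held a median of 12 CG pairs, beside 6 over 32817 promoters of the table, and 60.4% held at least 10, beside 37.8%. Every one of the 245 held at least 1 CG, as did 92.1% of all promoters. CG reads the same on both strands and cannot overlap itself. The median control density was 0.863 for the 66 members with 1 to 7 CG pairs and 0.560 for the 58 with 18 or more, whose median RNA was 1.60 and 5.73 RPKM. Spearman rho between CG pairs and control density was -0.255 over 245 members, a description.

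In RNA, few Zfp genes were called with Ezh2 deletion in Th0 cells when all 12 libraries shared 1 estimate of spread. On simulated counts this test recovered 28% of 2-fold and 73% of 4-fold changes, and the iTreg test 31% and 76%. Many real changes of that size could thus go uncalled. Of 297 members tested 9 rose and 11 fell, which is 3.03% and 3.70%, beside 8.74% and 3.22% of the 12845 genes tested. The other 50 members were too low to test. Small falls were common: 211 of the 297 had a negative log2 change (71.0%, beside 50.2% of all genes), and the median was -0.15 over members and -0.00 over all genes. The 6 Th0 libraries fitted alone, which leaves out the iTreg libraries that stood apart, called 28 members higher and 101 lower of 293, beside 26.5% and 25.6% of all genes. Leaving out iTreg KO.165 from the joint fit gave 19 and 50 (15.8% and 11.3% of all genes), and leaving out both iTreg libraries that stood apart gave 31 and 106 (26.3% and 25.3%). Leaving out any 1 of the 6 Th0 libraries from the joint fit gave 4 to 7 higher and 3 to 5 lower. Over all genes these fits called 4.58% to 6.09% higher and 1.45% to 1.62% lower. The summed T cell markers were 1569 to 1888 CPM in deleted Th0 and 3022 to 3180 CPM in control Th0.

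The largest rises in Th0 were in genes of low RNA. Zfp9 had fewer than 10 reads in each Th0 control, so it passed the read filter (minimum count 10) through other libraries. Zfp9 measured 0.163, 0.297 and 0.344 CPM in controls 173, 176 and 177 and 1.24, 1.08 and 1.05 CPM in KO.165, KO.174 and KO.175 (log2 change 2.01, SE 0.40, adjusted p = 0.00972). Zfp516, known as an activator of the brown fat program, measured 0.813, 0.630 and 0.611 CPM in controls and 2.63, 2.45 and 3.23 CPM without Ezh2 (log2 change 1.98, SE 0.34, adjusted p = 0.00518). The groups did not overlap in either gene, nor in any other member called in Th0. This mostly follows from the call, and it was not counted over all genes. Zfp941, Zfp768, Zfp820, Zfp629, Zfp523 and Zfp652 rose by log2 changes of 1.48 to 0.67. Zfp652, a repressor that works with CBFA2T3, had the highest level of these, at 25.2 CPM in control and 41.2 CPM in deleted cells. Its interval overlaps another, and RNA reads shared with a neighbour cannot be told apart without strand. In these bulk samples fewer cells of a type and less RNA per cell cannot be told apart.

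The largest fall in Th0 was that of Zfp36, the mRNA decay factor. It measured 74.1, 64.0 and 71.0 CPM in the controls and 25.8, 25.5 and 26.1 CPM without Ezh2 (log2 change -1.47, SE 0.31, adjusted p = 0.0121). In iTreg culture it was not called, at 57.3, 47.2 and 74.7 CPM in controls and 50.8, 46.5 and 112 CPM in deleted cells, where KO.165 was the high library (log2 change 0.23, adjusted p = 0.720). Zfp119b, Zfp60, Zfp775, Zfp52, Zfp821, Zfp433 and Zfp58 fell by 0.74 to 0.46 on the log2 scale. The call of Zfp58 held in 9 of 19 alternative fits (other scalings, filters and tests, or left-out libraries). Zfp433 fell from 31.5, 28.4 and 28.0 CPM to 22.6, 20.7 and 20.3 CPM. Zfp57, whose mark fell, had 0.0259 CPM in control and 0.416 CPM in deleted Th0, which was not called (adjusted p = 0.11).

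In all, 8 members were called in both the mark and Th0 RNA. In 5 of them (Zfp9, Zfp768, Zfp629, Zfp941 and Zfp652) H3K27me3 was lower and RNA higher. Zfp768 measured 1.06, 0.519 and 0.687 CPM in controls and 2.09, 2.15 and 2.00 CPM without Ezh2. Zfp629 measured 3.70, 3.86 and 4.12 CPM and then 9.27, 8.65 and 7.66 CPM, while its density went from 1.21 and 1.86 to 1.03 and 0.686. Zfp941 measured 0.488, 0.630 and 0.344 CPM and then 1.35, 1.49 and 1.37 CPM, with densities of 1.67 and 1.73 before 1.16 and 1.07. In none of the 5 did the RNA groups overlap, which mostly follows from the call and was not counted over all genes. Zfp60 and Zfp280d had more H3K27me3 reads and less RNA, and Zfp512 had more of both. The Th0 RNA calls of Zfp280d and Zfp512 held in 8 and 12 of 19 alternative fits. Over all 827 genes called in both, 52.5% had a lower mark and higher RNA, 25.5% a higher mark and lower RNA, and the other 182 genes moved the same way. The higher call of Zfp60 in H3K27me3 was lost under TMM (adjusted p = 0.111).

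**Figure D4:**
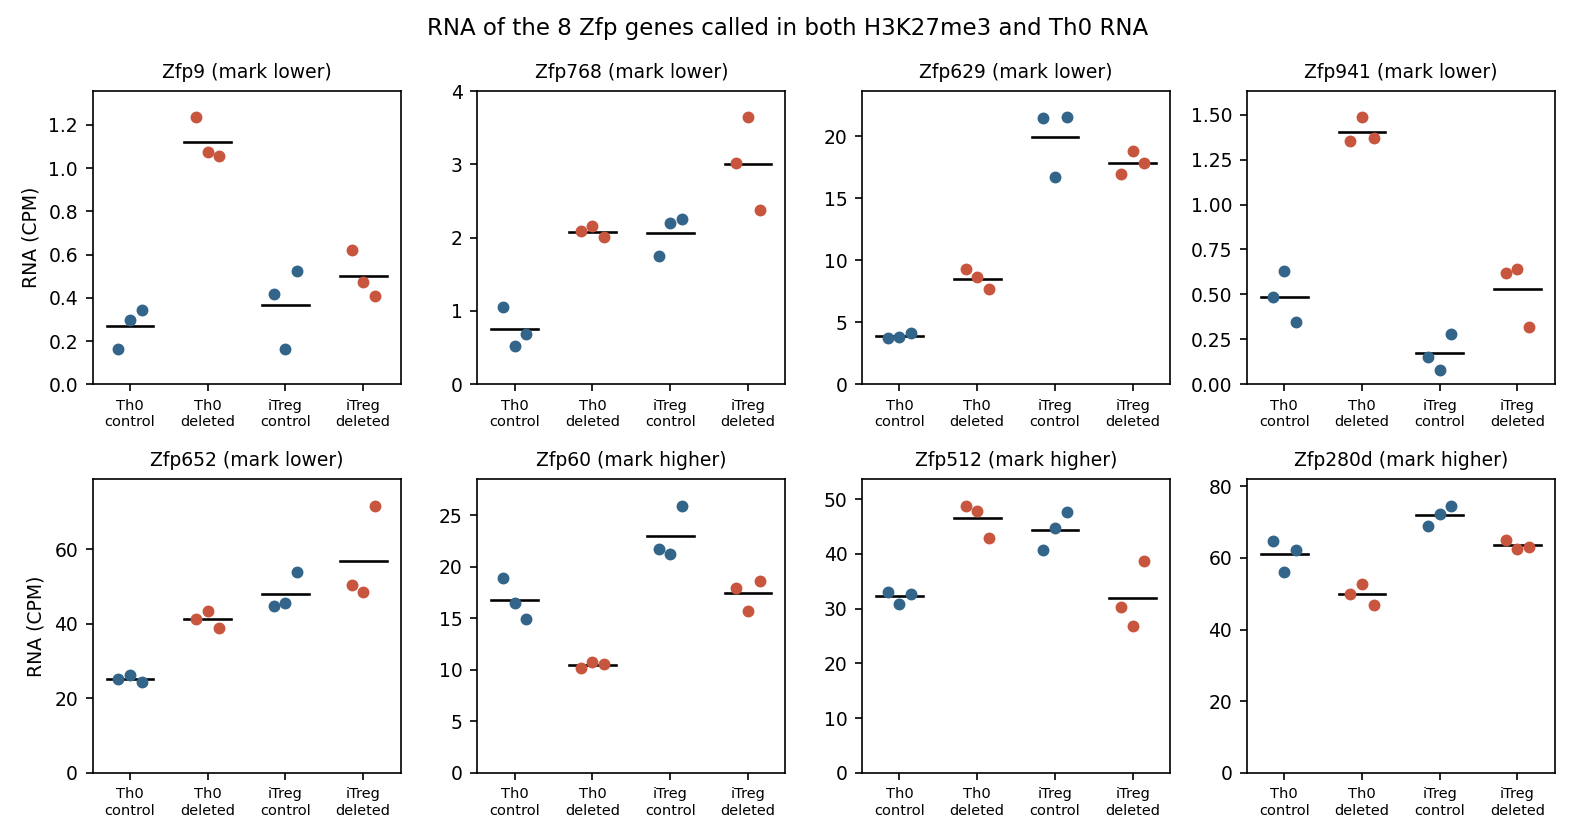
RNA (CPM) in each of the 12 libraries for the 8 Zfp genes called in both H3K27me3 and Th0 RNA, ordered by their H3K27me3 change, with the group mean as a line. The Th0 groups do not overlap in any panel, which holds for every member called in Th0 RNA and mostly follows from the call. In Zfp9, Zfp629 and Zfp652 the iTreg groups do overlap.

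Of the 34 members whose mark was lower, 16 had enough RNA to test: 5 rose in Th0 and 0 fell, 12 had a positive log2 change, and the median was 0.92. A member too low in control Th0 for the read filter was tested only if other libraries were higher. The rises among these 16 are thus partly set by the filter. Of the 114 whose mark was higher, 1 rose and 2 fell, and the median was -0.11. Among the 167 tested members with no call in the mark, 3 rose and 9 fell. Over all genes tested, whatever their mark, 8.74% rose and 3.22% fell. With the 6 Th0 libraries alone 58 members were called in both, of which 6 had a lower mark and higher RNA, 42 a higher mark and lower RNA, and 10 moved the same way (10.3%, 72.4% and 17.2%, beside 16.9%, 52.3% and 30.8% of the 3954 genes called in both). Spearman rho between the change in RNA and the change in the mark was -0.0301 over 296 members, a description.

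In iTreg culture 12 of 297 members rose with Ezh2 deletion and 17 fell (4.04% and 5.72%, beside 9.45% and 7.26% of all genes). Fitted alone, the 6 iTreg libraries called 6 higher and 1 lower (2.67% and 1.68% of all genes). Without iTreg KO.165 the joint fit called 29 and 100 (21.0% and 23.3%), and without both iTreg libraries that stood apart 37 and 110 (28.7% and 28.3%). Leaving out any other single library gave 9 to 12 higher and 8 to 14 lower, with 8 lower without iTreg KO.150 or KO.153 and 9 without control 155. Over all genes these fits called 5.86% to 9.18% higher and 4.64% to 7.05% lower. ChIP was not made in iTreg cells, so no mark goes with these changes.

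The largest rise in iTreg was again that of Zfp516, at 1.03, 0.897 and 1.73 CPM in controls 154, 155 and 177 and 6.19, 6.56 and 12.004 CPM in KO.150, KO.153 and KO.165 (log2 change 2.76, SE 0.34, adjusted p = 0.000532). Zfp820, Zfp93, Zfp286, Zfp583, Zfp449 and Zfp69 rose by log2 changes of 2.49 to 1.29, from levels of at most 2.70 CPM in any iTreg control library. In Zfp69 the library KO.165 carried much of the rise, with 10.7 CPM against 4.79 and 3.47 CPM. The call of Zfp69 held in 9 of 19 alternative fits. Zfp318 was the rise at the highest level, at 44.3, 41.3 and 40.9 CPM in controls and 107, 101 and 86.1 CPM in deleted cells (log2 change 1.22, SE 0.10, adjusted p = 6.54e-05). It is known in B cells, where it is needed for IgD expression, and the summed B cell markers given above were also higher in the deleted iTreg libraries, where KO.165 had the lowest of the 3. The 2 CD8 T cell markers summed to 138 and 132 CPM in KO.150 and KO.153, 39.6 CPM in KO.165 and 18.01 to 26.7 CPM in the iTreg controls. The part of either in these changes was not tested.

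The falls in iTreg were led by Zfp300 (3.01, 2.57 and 5.00 CPM against 1.07, 1.33 and 1.60 CPM) and Zfp821 (11.6, 13.7 and 15.3 CPM against 6.65, 6.56 and 5.66 CPM). Their log2 changes were -1.39 (SE 0.34, adjusted p = 0.0195) and -1.10 (SE 0.14, adjusted p = 0.000578). Zfp518b, Zfp658, Zfp873, Zfp944, Zfp1 and Zfp422 fell by 1.07 to 0.61 on the log2 scale. Zfp422 had the tightest groups, at 42.4, 46.7 and 42.4 CPM against 27.6, 29.9 and 28.4 CPM.

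The genotype contrasts of the cultures shared 10 called members, 50.0% of the 20 called in Th0 and 34.5% of the 29 called in iTreg, and 9 of the 10 had the same sign. Over all genes 845 were shared, 55.0% of the Th0 calls and 39.4% of the iTreg calls, and 762 had the same sign. Without both iTreg libraries that stood apart 78 members were shared, 56.9% and 53.1% of the calls, beside 66.2% and 59.8% over all genes. With all 12 libraries the shared members were Zfp52, Zfp422, Zfp433, Zfp516, Zfp523, Zfp820, Zfp821, Zfp941 and Zfp955a, and Zfp512 with opposite signs. The cultures share the numbers KO.165 and 177, and the joint fit shares 1 estimate of spread. The test of the difference itself, the genotype by culture interaction, called 2 members higher and 2 lower (0.673% each, beside 1.63% and 2.86% of all genes). Zfp318 and Zfp93 had a larger change in iTreg, with interaction log2 values of 1.05 (SE 0.14, adjusted p = 0.00349) and 2.60 (SE 0.42, adjusted p = 0.00799). Zfp629 and Zfp512 had a smaller or opposite one, at -1.25 (SE 0.19, adjusted p = 0.00574) and -0.97 (SE 0.19, adjusted p = 0.0193). Zfp449 missed the threshold (adjusted p = 0.0509). Without both iTreg libraries that stood apart the interaction called 36 and 46 members (19.9% and 21.3% of all genes), and without iTreg KO.165 alone 13 and 24 (8.09% and 11.5%). Without iTreg control 177 it called 5 and 3, and 1 lower in place of 2 without any 1 of 6 other libraries.

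Between cultures, Zfp RNA was higher in iTreg. Members together took 6500 to 6933 CPM in control Th0 and 8707 to 10150 CPM in control iTreg, 6193 to 6408 CPM in deleted Th0 and 7711 to 10624 CPM in deleted iTreg. In control cells 98 of 297 members were higher in iTreg and 16 lower (33.0% and 5.39%, beside 19.9% and 11.5% of all genes), with a median log2 difference of 0.38 over members and 0.06 over all genes. In Ezh2-deleted cells 112 were higher and 10 lower (37.7% and 3.37%, beside 16.6% and 8.75%), with medians of 0.49 and 0.04. The cultures also differ in the day given in the titles, so culture and day cannot be told apart. The 6 deleted libraries alone called 22 higher and 0 lower in edgeR (3.09% and 1.69% of all genes), where 134 members had an unadjusted p under 0.05, and 3695 of all genes did. Without the iTreg libraries that stood apart the counts were 156 and 27 in control (35.1% and 31.8% of all genes) and 158 and 25 in deleted cells (28.8% and 28.9%), and the members' medians 0.26 and 0.32. Leaving out Th0 KO.165, KO.174 or KO.175 gave 50 to 53 higher and 4 lower in deleted cells (5.26% to 5.54% and 3.13% to 3.22% of all genes). Leaving out control 173, 176 or 177 of Th0, or 177 of iTreg, gave 52 to 64 higher and 5 to 6 lower in control cells. Over all genes these fits called 10.1% to 13.0% and 5.12% to 6.28%. Without iTreg KO.165 it was 162 and 25 members (33.7% and 29.2% of all genes).

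**Figure D5:**
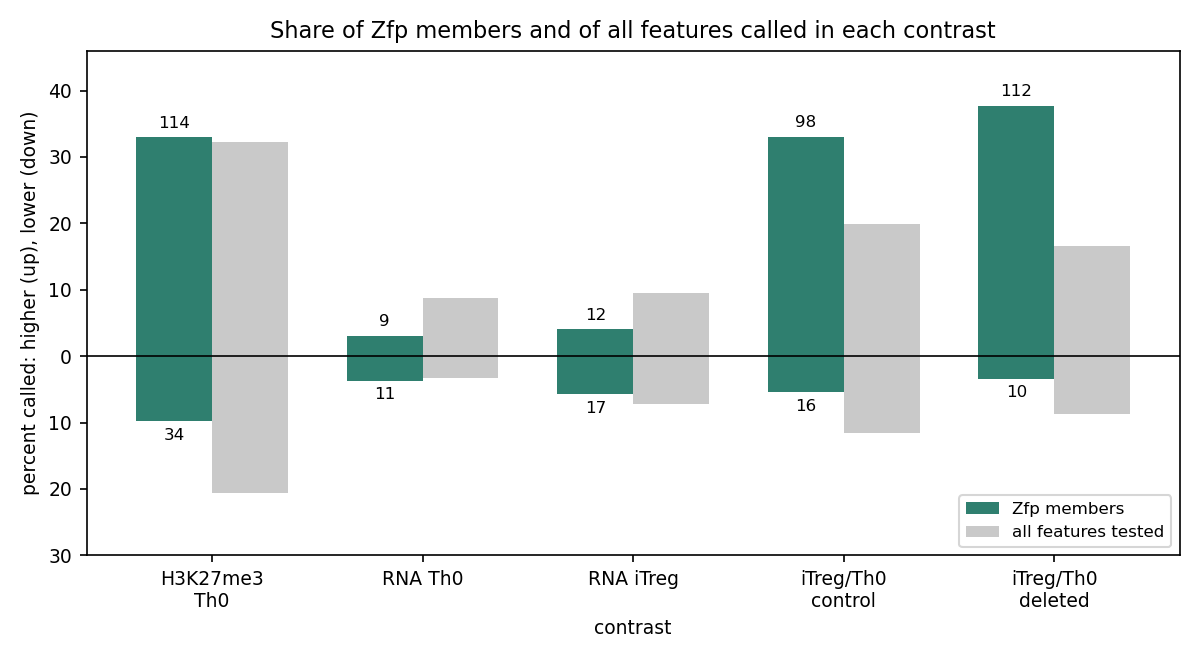
Percent of tested Zfp members (green, with their number) and of all tested features (grey) called higher (above 0) or lower (below 0) in each contrast, at an adjusted p under 0.05 in edgeR. Members exceed all genes in higher calls of iTreg against Th0, in control (33.0% beside 19.9%) and deleted cells (37.7% beside 16.6%), and fall below all intervals in lower H3K27me3 calls (9.83% beside 20.6%).

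The largest culture differences in control cells were Zfp629 (log2 difference 2.29), Zfp169, Zfp579, Zfp760 and Zfp874b among genes higher in iTreg, and Zfp93 (-2.81), Zfp583, Zfp296, Zfp239 and Zfp428 among those lower. The calls of Zfp296, Zfp239 and Zfp169 held in 5, 6 and 8 of 18 alternative fits. Zfp760 measured 7.28, 5.52 and 5.69 CPM in Th0 and 18.1, 22.4 and 22.9 CPM in iTreg. In Zfp169 and Zfp579 the control library 177 of iTreg held 27.6 and 30.3 CPM against at most 14.4 and 18.8 CPM in the other 2. In deleted cells Zfp945, Zfp354c, Zfp874b, Zfp579 and Zfp318 were higher in iTreg, and Zfp941, Zfp428, Zfp9, Zfp365 and Zfp518b lower. The call of Zfp9 there held in 6 of 18 alternative fits. Zfp354c measured 3.26, 1.89 and 14.7 CPM in deleted iTreg, and Zfp579 10.6, 9.30 and 50.5 CPM, so KO.165 was far above the others in both. Without the 2 iTreg libraries that stood apart their log2 differences were 1.20 and 0.90, in place of 2.55 and 2.14. Both contrasts called 82 of the same members, 71.9% of the 114 of control cells and 67.2% of the 122 of deleted cells, and 81 had the same sign. Over all genes the shared calls were 45.6% and 56.3%. Without both iTreg libraries that stood apart 137 members were shared, 74.9% of each, beside 65.4% and 75.8% over all genes.

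Some members with a known role in the silencing of transposons and imprinted genes were expressed in Th0 cells of both genotypes. Zfp57, described above, was not: its mean stayed under 1 CPM in both. Zfp809, which silences murine leukaemia virus, had 17.2 CPM in control and 18.6 CPM in deleted Th0, and Zfp445, which guards imprinted regions, 117 and 107 CPM. Zfp568, a repressor of a placental Igf2 transcript, had 17.2 and 17.8 CPM. None of Zfp809, Zfp445 and Zfp568 was called for genotype in either culture. Over all genes tested, 8.74% rose and 3.22% fell in Th0 with Ezh2 deletion, and 9.45% and 7.26% in iTreg. Of the 28 genes listed for the KRAB silencing machinery, 0 rose and 3 fell in Th0, and 0 rose and 3 fell in iTreg. In Th0 these were Trim24, by 0.87 on the log2 scale (SE 0.17, adjusted p = 0.00907), Atf7ip, a partner of Setdb1, by 0.63 (SE 0.18, adjusted p = 0.0476), and Morc3 by 0.47 (SE 0.09, adjusted p = 0.00713). In iTreg they were Trim24, the nucleosome remodeler Chd4 and Ehmt1. The core genes Trim28 and Setdb1 had log2 changes of -0.10 (adjusted p = 0.909) and -0.25 (adjusted p = 0.320) in Th0. The median log2 change over the 28 genes was -0.15 in each culture, beside -0.00 in Th0 and 0.01 in iTreg over all genes.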

How the data were processed

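The submitters' processing notes name Trimmomatic 0.30, TopHat2 2.0.6 and featureCounts 1.4.2 for RNA and Bowtie2 2.1.0 and featureCounts 1.4.2 for ChIP, with the build mm10, and give no settings. Per the file headers, ChIP counts came from featureCounts over gene intervals without strand, and reads in more than 1 interval were not counted. The deposited values are raw read counts per gene or interval. Members and lists were chosen with earlier results of these data known. Density is CPM per kb, RPKM uses the deposited gene lengths. Tests were edgeR 4.0.16 quasi-likelihood tests on all features (filterByExpr, minimum count 10), RNA with TMM over 12 libraries, ChIP with library-size scaling over 4, Benjamini-Hochberg adjusted over all features, threshold 0.05. The code was tested on simulated data, where false calls were under the threshold for RNA and above it for the ChIP comparison of 2 against 2 libraries. Named members were the 12 densest, the 8 largest called losses and gains of the mark with at least 20 reads per library of the higher group, the 8 (genotype) or 5 (culture) largest changes in each direction with non-overlapping groups and at least 1 CPM, the 5 smallest interaction p, the 2 densest of clusters of at least 10 members, members called in both assays and a fixed list with known roles. Sequences came from RefSeq (GRCm38.p6); the 6 shown were chosen after their values were seen. DESeq2 1.42.0, other scalings, no filter, single cultures and left-out libraries were alternatives. A split by protein domain was not made.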

Additional observations from a re-analysis of the deposited data

Results flagged for a closer look

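The genotype effect differed between iTreg and Th0 cultures in 4 members, by the interaction term over all 12 libraries. The interaction was 1.05 (log2) for Zfp318, whose genotype change was 0.17 in Th0 and 1.22 in iTreg. It was -1.25 for Zfp629 (1.10 in Th0, -0.15 in iTreg), 2.60 for Zfp93 (-0.27 in Th0, 2.34 in iTreg) and -0.97 for Zfp512 (0.50 in Th0, -0.47 in iTreg). Zfp318, Zfp629 and Zfp93 passed the threshold under all 17 alternatives, and Zfp512 under 11 of 17, with adjusted p from 4.89e-06 to 0.0602. Zfp93 rests on low RNA, at most 1.67 CPM in any library.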

How the results depend on the processing

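No paired analysis was possible because the genotypes share no title number and the cultures share 1 per genotype, and a block for each number leaves no residual degrees of freedom. A fit with an estimated correlation between libraries of 1 number was not run. TMM scaling gave 67 higher calls in H3K27me3 (24.3% of all intervals). In Th0 RNA the culture alone gave 28 higher and 101 lower, and without the female library 26 and 98; without both iTreg libraries that stood apart it was 31 and 106. DESeq2 gave 29 lower and no filter 7 (6.70% and 1.88% of all genes). In iTreg RNA the higher and lower calls were 20 and 30 with DESeq2, 6 and 1 with the culture alone, 11 and 19 when it also lacked the female library, and 37 and 110 without both libraries. The interaction gave 7 and 7 with DESeq2 (4.19% and 5.67% of all genes), and 36 and 46 without both libraries (19.9% and 21.3%). For iTreg against Th0 in control cells, leaving out both libraries gave 156 and 27 (35.1% and 31.8% of all genes). No filter gave 10 lower there (6.85%). In deleted cells the genotype alone gave 22 higher and 0 lower (3.09% and 1.69%). There DESeq2 gave 20 lower (15.5%) and leaving out both libraries 25 lower (28.9%). Members in the top 5% of density numbered 5, and in the top 20% 40.

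Leaving out 1 library gave 0 to 159 higher and 0 to 43 lower in H3K27me3, 4 to 19 and 3 to 50 in Th0 RNA, 9 to 29 and 8 to 100 in iTreg RNA, 2 to 13 and 1 to 24 for the interaction, 52 to 162 and 5 to 25 for culture in control cells, 50 to 147 and 4 to 12 in deleted cells. The cause of these moves was not tested.

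Of the single-gene values recomputed, 11 changed sign, all in H3K27me3 changes not called. With TMM these were Zfp260 (-0.12), Zfp467 (-0.093), Zfp81 (-0.12) and Zfp930 (-0.11). Leaving out 1 library gave -0.096 to 0.29 for Zfp260, -0.10 to 0.34 for Zfp467, -0.080 to 0.34 for Zfp81, -0.37 to 0.52 for Zfp930 and -0.12 to 0.10 for Zfp458. Depth limits the sparse intervals: 10 members had under 20 reads in a control ChIP library, and 50 were too low to test in RNA.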

Other observations

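Zfp703 (NLZ1), of the same small family as Zfp503, was set apart by 1 library, a choice made after its values were seen. Its RNA was 33.2 CPM in Th0 KO.165, the library with the highest B cell markers (527 CPM), against 12.5 and 12.1 CPM in KO.174 and KO.175 and 10.9 to 13.3 CPM in control Th0. Its interval was sparse in H3K27me3 in both genotypes, at a mean of 0.282 in control and 0.516 in deleted cells on 11 to 29 reads, while that of Zfp503 was the densest of all members in control cells.

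The 8 members on the X chromosome were ordered between libraries as the X share of their ChIP reads. Their median density was 0.585 in control 33 and 1.20 in control 7, and 1.00 and 0.663 in deleted 10 and 9, while the medians of the 339 autosomal members were 0.768, 0.704, 0.981 and 0.956. On autosomes alone 127 members were called higher and 34 lower in H3K27me3 (37.6% and 10.1%, beside 36.1% and 22.5% of all intervals).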
